A study of Homo sapiens and Mus musculus with 66 samples.

Results

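The data compared are 2 lists of chromatin regions called at or near the nuclear lamina (NL) in HCT116 cells, a human colorectal carcinoma line. One list is from 180m G1 cells, which were blocked with nocodazole (for 16 h per the labels, somewhat longer per the study's methods), collected by mitotic shake-off, released for 180 min, fixed and sorted by FACS for G1 DNA content. The other is from asynchronous G1 (Async G1) cells, which received no treatment and were sorted for G1 from a growing culture. Both populations come from the same single line, and only the 180m G1 cells had passed through a nocodazole block, so the time after mitosis and the block itself cannot be told apart. Lamin-B1 cTSA-seq was performed on 2 replicates of each population, each with libraries of input and pull-down DNA, 8 libraries in all.

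A window was counted as a member when at least 1 of the lists called it. On the 30970 windows of 100 kb that make up chromosomes 1 to 22, X and Y of hg19, 7653 windows were members. Both lists called 4941 of them, only the 180m G1 list called 1403, and only the Async G1 list called 1309. The lists hold region starts and ends alone, with neither a signal nor a read count. Depth and the spread between replicates are therefore unknown, and no value below has a replicate error or a test. The Async G1 list is named a consensus of its replicates and the 180m G1 list is not. Replicate calls were intersected according to the study's methods, which do not speak of single lists. The part of any difference in merging was not tested.

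The NL is a meshwork of A- and B-type lamins beneath the inner nuclear membrane, and lamina-associated domains (LADs) are long, mostly gene-poor and AT-rich stretches of chromatin that lie against it. During mitosis the NL is taken apart and chromatin loses this contact, and in the G1 phase that follows the lamins reassemble around the chromosomes of the daughter nuclei. cTSA-seq marks chromatin near lamin-B1 by peroxidase labelling with biotin before pull-down. The comparison addresses how far the map of NL-chromatin 180 min after mitotic release resembles that of G1 cells from an unsynchronised culture.

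The regions that differed most were stretches of several Mb in which a single list called every window. The longest stretch only in 180m G1 was chr7:108300001-111700000, which holds IMMP2L, a subunit of a mitochondrial inner membrane peptidase. The third longest was chr7:8100001-10600000, with NXPH1, a secreted ligand of neurexins. Among the stretches only in Async G1, chr10:55300001-57900000 ranked second and holds PCDH15, a cadherin of the hair cell tip link, and chr15:25800001-28300000 was the third in size and holds GABRG3, a subunit of the GABA-A receptor. The 150 bases before a start site of each of these genes are printed to show sequence from the differing chromatin, and those of IMMP2L reach 25 bases into the annotated gene. They were read from a RefSeq promoter table (GRCh38.p14) and matched exactly and once to hg19. Capitals mark every CG pair, the dinucleotide that is methylated in mammalian DNA.
IMMP2L (chr7:111202549-111202698, minus strand): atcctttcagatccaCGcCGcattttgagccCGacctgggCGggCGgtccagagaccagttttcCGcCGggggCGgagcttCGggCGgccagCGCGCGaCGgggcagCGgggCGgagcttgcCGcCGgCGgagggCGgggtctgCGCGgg
NXPH1 (chr7:8473089-8473238, plus strand): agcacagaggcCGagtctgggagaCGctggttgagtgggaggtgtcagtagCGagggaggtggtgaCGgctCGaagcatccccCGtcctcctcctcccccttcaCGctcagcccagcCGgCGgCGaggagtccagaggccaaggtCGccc
PCDH15 (chr10:57387703-57387852, minus strand): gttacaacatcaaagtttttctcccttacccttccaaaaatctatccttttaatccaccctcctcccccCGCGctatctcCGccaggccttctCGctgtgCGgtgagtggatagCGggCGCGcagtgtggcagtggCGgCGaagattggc
GABRG3 (chr15:27216178-27216327, plus strand): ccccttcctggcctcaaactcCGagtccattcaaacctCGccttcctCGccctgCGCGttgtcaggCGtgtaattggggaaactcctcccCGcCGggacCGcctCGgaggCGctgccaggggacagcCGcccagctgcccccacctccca

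The promoter of IMMP2L held 22 CG pairs and 74.7% GC, and that of NXPH1 held 11 pairs and 68.0% GC. Those of PCDH15 and GABRG3, in chromatin called only in Async G1, held 10 and 12 pairs with 56.0% and 68.0% GC. The promoters of CYYR1 and SEMA6D, from other long stretches only in Async G1, held 4 and 6 pairs with 56.7% and 66.7% GC. These promoters are too few to compare the classes. Of all 35116 promoters in the table, 89.1% held at least 1 CG in the same 150 bases, so that a match is common. Only 76.1% of protein-coding genes had an entry under their symbol, so a comparison of the classes covers those genes alone. Among them the median count of CG pairs was 4.33 in both lists, 7 only in 180m G1 and 7.5 only in Async G1. In neither list it was 12.

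The windows in both lists made up 16.0% of all windows, those only in 180m G1 4.53% and those only in Async G1 4.23%. As a share of each list, 77.9% of the 6344 windows in 180m G1 were also in Async G1, and 79.1% of the 6250 windows in Async G1 were also in 180m G1. The lists were of nearly equal extent, 634.4 Mb against 624.9 Mb. The slight surplus of windows only in 180m G1 turned when 1 of 2 chromosomes was left out: without chromosome 3 there were 1226 against 1264 only in Async G1, and without chromosome X 1270 against 1296. For scale, the lists of S and G2 cells sorted from asynchronous cultures shared more windows with the Async G1 list. The S list called 94.0% of the Async G1 windows and the G2 list called 90.5%, while these lists called 85.1% and 79.1% of the 180m G1 windows.

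The differing windows lay in many short stretches. Windows in both lists formed 326 stretches with a median size of 1.10 Mb (quartiles 0.60 and 1.98 Mb, longest 10.3 Mb). Windows only in 180m G1 formed 325 stretches with a median of 0.20 Mb (quartiles 0.10 and 0.60 Mb, longest 3.4 Mb), and windows only in Async G1 formed 305 stretches with a median of 0.30 Mb (quartiles 0.10 and 0.50 Mb, longest 3.5 Mb). The difference between these last medians went away under other settings: on autosomes only, with regions of at least 200 kb or with gaps of up to 100 kb joined, both were 0.30 Mb. Differing stretches are what remains once the shared part is taken away, so their smaller size follows in part from how the classes are made. Single windows were 94 of the stretches only in 180m G1 and 93 of those only in Async G1. The few stretches of 1 Mb or more, 37 and 29 in number, held 38.7% and 35.9% of the differing Mb.

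**Figure D1:**
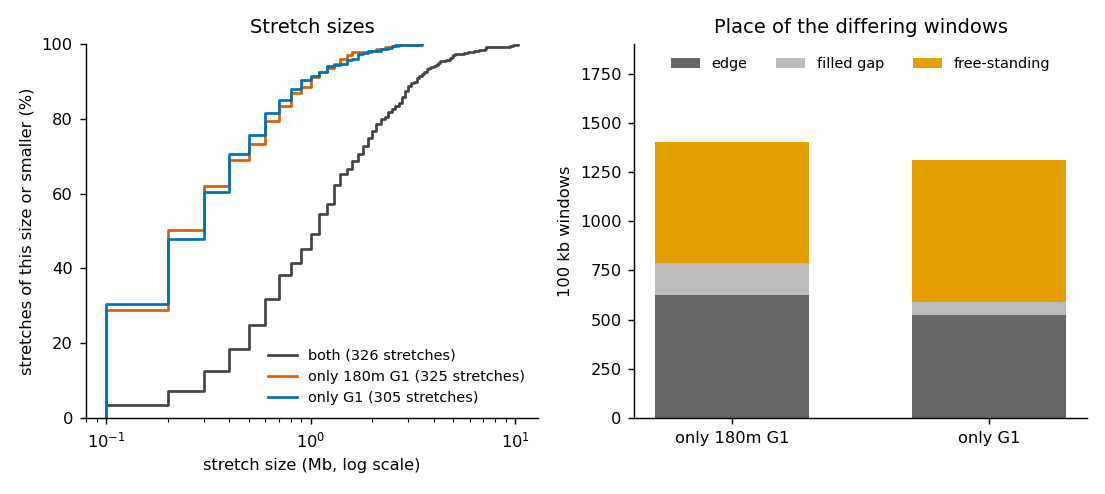
Left, cumulative share of stretches (%) by stretch size (Mb, log scale) for windows in both lists (grey), only in 180m G1 (orange) and only in Async G1 (blue). Right, number of 100 kb windows only in each list by their place next to shared chromatin. The 2 curves of differing stretches lie close together and left of the curve for shared stretches (medians 0.20, 0.30 and 1.10 Mb), and free-standing windows were 617 of 1403 only in 180m G1 and 720 of 1309 only in Async G1.

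The place of these stretches differed between the lists. A stretch was called an edge when exactly 1 of its neighbouring windows was in both lists, a filled gap when both neighbours were, and free-standing when neither was. Edges held 624 windows (44.5%) of those only in 180m G1 and 522 (39.9%) of those only in Async G1. Filled gaps held 162 windows (11.5%) only in 180m G1, in 36 stretches, against 67 windows (5.12%) only in Async G1, in 7 stretches. Free-standing stretches, which are whole regions that the other list lacks, held 44% of the windows only in 180m G1 and 55% of those only in Async G1. The latter were led by chromosome 19 with 101 windows, chromosome 15 with 87 and chromosome 21 with 60, whereas those only in 180m G1 were led by chromosome 7 with 93 windows, chromosome 3 with 81 and chromosome 6 with 80.

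Whole regions showed the same. Of the 377 regions in 180m G1, 87 (23.1%) overlapped no region of Async G1, and of the 443 regions in Async G1, 124 (28.0%) overlapped none of 180m G1. Some regions spanned several of the other list: 20 of 180m G1 overlapped 2 Async G1 regions and 8 overlapped 3, while 5 Async G1 regions overlapped 2 of 180m G1 and 1 overlapped 3. The median region was 1.2 Mb (quartiles 0.6 and 2.0 Mb) in 180m G1 and 1.0 Mb (quartiles 0.5 and 1.7 Mb) in Async G1, and the longest were 13.2 and 10.4 Mb.

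Borders fell in the same window for a minority of regions. Of the 753 borders in 180m G1 that were not at a chromosome end, 189 (25.1%) coincided with a border of the same kind in Async G1, and 46.6% lay within 1 window of one. Of the 883 borders in Async G1, 21.4% coincided and 39.8% lay within 1 window. In 250 pairs of regions that overlapped each other and no other region, 499 borders could be compared. Of these, 173 (34.7%) were in the same window, 172 (34.5%) lay farther out in 180m G1 and 154 (30.9%) farther in. The median shift was 0.2 Mb in either direction, with the largest at 1.6 Mb outward and 3.5 Mb inward. The 180m G1 region was the longer one in 107 pairs and the shorter one in 99, and 33 pairs were identical.

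The balance of the lists changed with the chromosome. The 180m G1 list covered more than the Async G1 list on 12 of the 23 chromosomes other than Y, and less on 11. The 10 longest chromosomes (1 to 9 and X), a group chosen after the values were seen, were all covered more in 180m G1, with 24.0% called against 20.3%. The 13 shorter chromosomes were called at 15.8% in 180m G1 and 20.5% in Async G1, and only chromosomes 11 and 18 among them were covered more in 180m G1. On the long chromosomes, 88.1% of the Async G1 windows were also in 180m G1, and on the short ones 66.1%. Across the 23 chromosomes, length and the difference in called share (180m G1 minus Async G1, in percentage points) had a Pearson r of 0.71 and a Spearman rho of 0.78, and without chromosomes 19 and 21 these were 0.66 and 0.72. This is a description over chromosomes of 1 pair of lists. Length also went with base composition (rho of -0.58 with GC), and GC and the difference had a rho of -0.63.

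**Figure D2:**
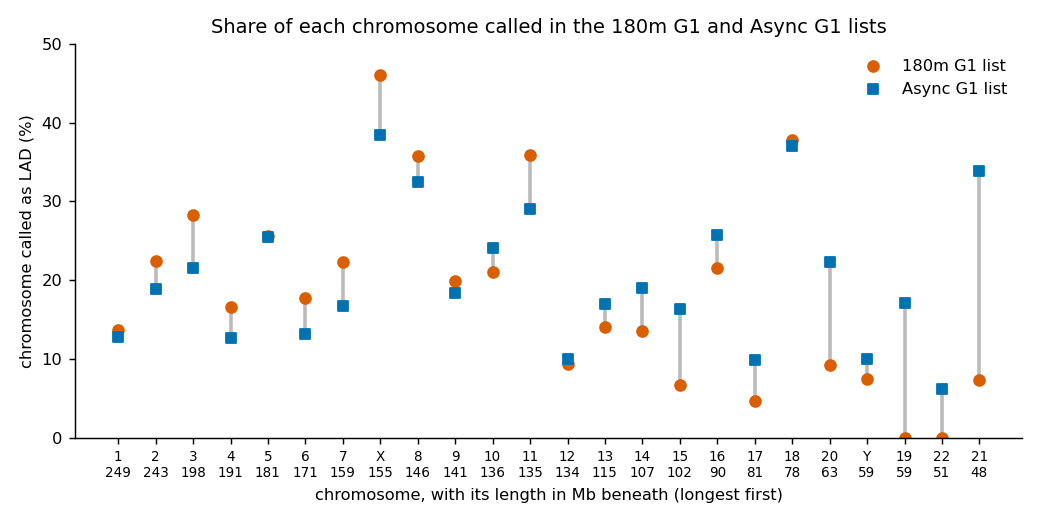
Share of each chromosome called as LAD (%) in the 180m G1 list (orange circles) and the Async G1 list (blue squares), with chromosomes ordered by length in Mb and a grey line joining the 2 values. The circles lie above the squares on the 10 longest chromosomes, and chromosome 21 has the widest gap, 7.27% in 180m G1 and 33.9% in Async G1.

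The widest gain in 180m G1 was on chromosome X, where 46.1% was called against 38.4% in Async G1, a difference of 7.73 percentage points. Chromosome 11 followed with 35.9% against 29.0%, and chromosome 3 with 28.2% against 21.6%. At the other end, chromosome 21 was called at 7.27% in 180m G1 and 33.9% in Async G1. Chromosome 19 had no call in 180m G1 and was called at 17.1% in Async G1, in 12 regions. Chromosome 20 was called at 9.20% and 22.4%. Chromosome 22 likewise had no call in 180m G1 and 6.24% in Async G1. S and G2 cells resembled Async G1 on chromosome 21, with 32.8% and 29.7% called. On chromosome 19 they lay between the 2 lists, with 12.7% called in S and 8.29% in G2. The 90m G1 list, from cells collected earlier after release, called neither chromosome. The metacentric chromosome 1 (13.7% in 180m G1, 12.8% in Async G1) and the small, gene-poor chromosome 18 (37.8% and 37%) differed little, while the acrocentric chromosome 14 was called at 13.6% and 19%.

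Along the chromosomes, the classes had different positions. On chromosomes 1 to 22 and X, the median distance to the nearest chromosome end was 18.6% of chromosome length for windows only in 180m G1 (quartiles 8.99% and 31.4%), 20.6% for windows in both lists (quartiles 9.52% and 36.4%) and 30.9% for windows only in Async G1 (quartiles 14.3% and 39.7%). Windows in neither list had a median of 25.8%. The middle of the chromosomes, from 30% of the length inward, held 29.2% of the windows only in 180m G1 and 51.3% of those only in Async G1. It held 35.9% of the windows in both lists and 40.9% of those in neither. The distribution of the windows only in 180m G1 was not smooth, and 191 of them (13.8%) lay between 30% and 35% of the length. Of these, 40 were on chromosome 2, 36 on chromosome 3 and 33 on chromosome 7. The same range held 192 (15.0%) of the windows only in Async G1, so the rise was not particular to 180m G1. Of these 192, 29 were on chromosome 13, 23 on chromosome 22 and 21 on chromosome 21.

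**Figure D3:**
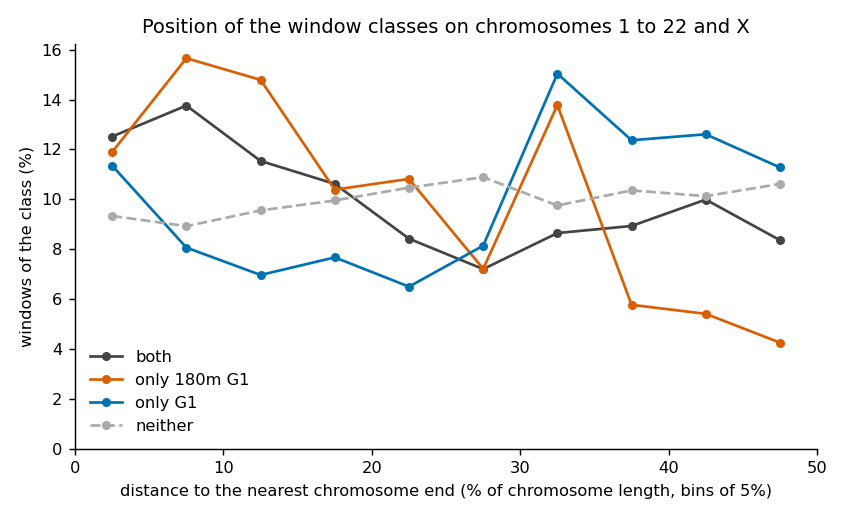
Share of the windows of each class (%) by distance to the nearest chromosome end, in bins of 5% of chromosome length, on chromosomes 1 to 22 and X, for windows in both lists (dark grey), only in 180m G1 (orange), only in Async G1 (blue) and in neither (dashed). From 35% of the length inward each bin holds 11.3% to 12.6% of the windows only in Async G1. Each of these bins holds 4.26% to 5.77% of those only in 180m G1. The bin from 30% to 35% holds 15.0% and 13.8%, in the same order.

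In Mb the order turned: the medians were 30.5 Mb for windows only in 180m G1 and 24.3 Mb for windows only in Async G1. Within the 10 longest chromosomes the medians were 16.7% of the length (31.4 Mb) and 30.6% (57.05 Mb), and within the 13 shorter ones 23.1% (29.7 Mb) and 31.1% (21.3 Mb). The outermost 2 Mb of the chromosomes held 33 windows (2.38%) of those only in 180m G1 and 53 (4.15%) of those only in Async G1. These shares lie on either side of the 3.29% of windows in neither list, and 1.97% of windows in both lay there. Near the centromere the classes stood farther apart. The longest run of undetermined bases on each chromosome was taken as the centromeric gap. Its place was not checked against annotated centromeres, and chromosome 21 gave 5 of the windows only in Async G1 counted here. Within 5 Mb of the centromeric assembly gap lay 46 windows (3.32%) only in 180m G1, 275 (5.60%) in both and 242 (19%) only in Async G1. The share for windows in neither list was 7.08%. Of these 242, 72 were on chromosome 19 and 170 elsewhere, so that the difference did not rest on chromosome 19. Chromosome X went the other way, with 28 windows only in 180m G1 near its centromere and 2 only in Async G1.

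Base composition differed between the classes. The median GC of the windows was 37.4% in both lists (quartiles 35.9% and 39.4%), 38.2% only in 180m G1 (quartiles 36.6% and 39.95%) and 40.8% only in Async G1 (quartiles 37.7% and 43.5%). Windows in neither list had a median of 40.7%. Windows only in 180m G1 were thus closer in GC to the shared LADs, and windows only in Async G1 closer to chromatin outside the lists. The order held in both groups of chromosomes, at 38.2% and 41.0% on the 10 longest and 37.7% and 40.8% on the others. Of 20 chromosomes with windows of both kinds, Y included, 17 had a higher GC in the windows only in Async G1. The exceptions were chromosomes 14, X and 21, and the last has 1 window only in 180m G1.

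**Figure D4:**
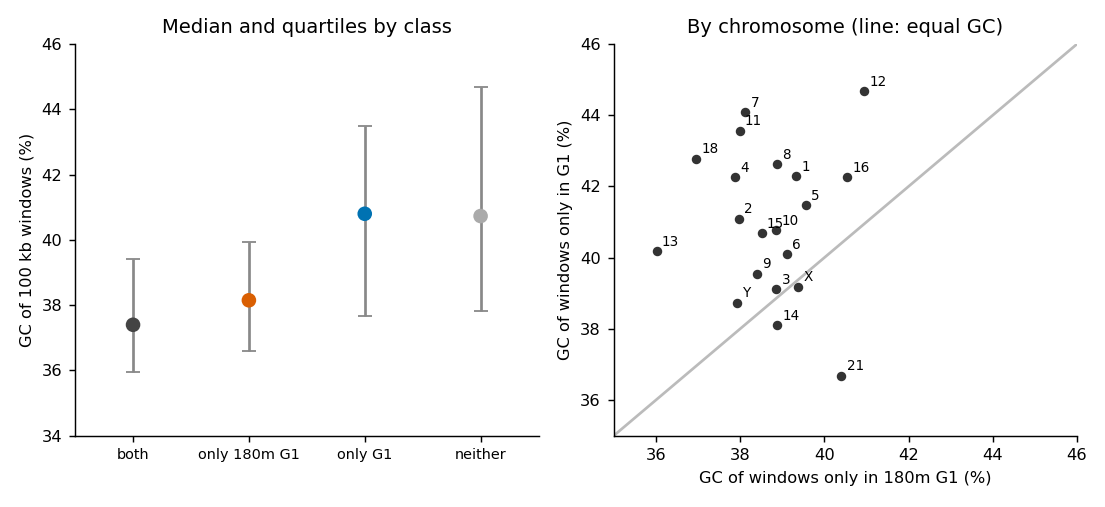
Left, median GC (%) of 100 kb windows by class, with bars for the quartiles. Right, pooled GC (%) of the windows only in Async G1 against that of the windows only in 180m G1, a point for each of the 20 chromosomes with both kinds (Y included), with a grey line of equal GC. The medians are 37.4% (both), 38.2% (only 180m G1), 40.8% (only G1) and 40.7% (neither), and 17 of 20 points lie above the line.

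Genes were counted in a class when at least 80% of their length lay in its windows. Of 20163 protein-coding genes, 579 (2.87%) were in chromatin of both lists, 446 (2.21%) in chromatin only in 180m G1 and 365 (1.81%) in chromatin only in Async G1, while 18533 (91.9%) were in chromatin of neither. Per Mb these were 1.17, 3.18 and 2.79 genes, against 7.95 in chromatin of neither list and 6.51 over all windows. Differing chromatin therefore held more genes than shared LADs and fewer than the rest of the genome. The order of the differing classes, 446 against 365 genes, kept with each chromosome left out. It narrowed to 361 against 354 without chromosome 11 and to 373 against 363 without chromosome X. This order held for protein-coding genes only. With all annotated gene types, including pseudogenes and noncoding RNA genes, 1871 genes lay in chromatin only in 180m G1 and 2482 in chromatin only in Async G1. Many stretches had no protein-coding gene at all, 173 of 325 only in 180m G1 and 200 of 305 only in Async G1, and the most in a stretch were 27 and 34.

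The 6 longest stretches only in 180m G1 were all free-standing. The longest, 3.4 Mb on chromosome 7 with IMMP2L and LRRN3, a neuronal leucine-rich repeat protein, had no window in the 90m G1, S or G2 list nor in the lists of HCT116 cells that were not sorted, but 29 of its 34 windows were called in K562, a leukemia line. The second, chr8:117900001-120600000, holds SAMD12, EXT1, a heparan sulfate polymerase, and SLC30A8, a zinc transporter of insulin granules, and 26 of its 27 windows were called in 90m G1 and 18 in S. The third holds NXPH1 and ICA1, an islet autoantigen, and 6 of its 25 windows were called in S and none in G2. The fourth, chr3:39700001-42000000, has 40.5% GC and holds ULK4, a member of the ULK kinase family, MYRIP, which links RAB27A to myosin, and CTNNB1, which encodes beta-catenin of the WNT pathway. S called 2 of its 23 windows and G2 called 6.

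The fifth stretch only in 180m G1, chr2:163300001-165400000, holds KCNH7, a potassium channel, and FIGN, a microtubule-severing enzyme, and S called 18 of its 21 windows. The sixth, chr11:103500001-105600000, holds PDGFD, a growth factor, with CARD18 and CARD16, which inhibit caspase-1, and S called 5 of its 21 windows. Neither stretch had a window in 90m G1. Apart from the stretch with EXT1, the long stretches only in 180m G1 were thus absent from the earlier 90m G1 list, and most of their windows except those with KCNH7 and EXT1 were absent from S. HCT116 cells that were not sorted had calls in each of them but the longest, though their lists differed. The bulk list called 27 of 27 windows with EXT1, 9 of 25 with NXPH1 and 16 of 23 with CTNNB1. It called none with KCNH7 or PDGFD. The list from 200000 cells called 19 of 21 with KCNH7, 12 of 27 with EXT1, 10 of 25 with NXPH1 and none with PDGFD. The list from 50000 cells called 15, 13, 8 and 4 of these, in the same order. Neither list called a window with CTNNB1. The list from 1000000 cells called 10 of 23 with CTNNB1, 4 of 21 with KCNH7 and no window of the other stretches. K562 called most windows of all 6 stretches.

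The 6 longest stretches only in Async G1 lay on chromosomes 21, 10 and 15. The longest, chr21:19400001-22900000, holds NCAM2, a neural cell adhesion molecule, and TMPRSS15, the enteropeptidase that activates trypsinogen, and S and G2 called all of its 35 windows. The stretch with PCDH15 filled a gap between shared windows, and S and G2 called all of its 26 windows. The third, chr15:25800001-28300000, holds GABRG3 and OCA2, a melanosome transport protein, and S called 22 of its 25 windows. The next in rank, chr21:27700001-30100000, holds CYYR1 and the secreted metalloproteases ADAMTS5 and ADAMTS1, and G2 called all of its 24 windows. The fifth, chr15:46200001-48400000, holds SEMA6D, a semaphorin, and the sixth, chr21:24700001-26900000, holds no protein-coding gene. S called 20 of 22 windows in each of them. All 6 were without a call in 90m G1, and most windows of each were called in S and in G2.

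Gene families lay in the differing chromatin as clusters, and the genes of a cluster share 1 call and are not independent. Over all protein-coding genes, 2.87% were in both lists, 2.21% only in 180m G1 and 1.81% only in Async G1. Of 415 genes with the symbol of the olfactory receptor family, which senses odorants, 118 were in both lists, 52 only in 180m G1 and 28 only in Async G1. A further 217 were in neither list. Some of these symbols, such as OR4M2-OT1 among the 28 and OR9A1P among the 52, are those of an overlapping transcript or a pseudogene. The 52 lay in 7 stretches, with 24 in chr11:123600001-124500000 and 19 in chr11:4400001-5000000, and neither stretch had a window in S or G2. Of the 28, 15 lay in chr14:19100001-20600000, where S called 13 of 15 windows. Of 24 bitter taste receptor genes, 6 were only in 180m G1, all on chromosome 7 (TAS2R3, TAS2R4, TAS2R5, TAS2R38, TAS2R39 and TAS2R40), and none were only in Async G1. The windows of both stretches that hold them were all called in 90m G1. S called 8 of 11 windows in the first stretch and 5 of 7 in the second, and G2 called none. Of 39 HOX genes, which pattern the body axis, HOXD8 to HOXD13 were only in 180m G1, in chr2:176200001-177000000, and the other 33 were in neither list. No window of this stretch was in the 90m G1, S or G2 list.

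ZNF zinc finger genes, many of which encode KRAB repressors, lay on the other side. Of 515, 85 were only in Async G1, 4 only in 180m G1 (ZNF619, ZNF620, ZNF621 and ZNF711) and 9 in both lists. A further 406 were in neither list, and 1.81% of all protein-coding genes were only in Async G1. Of the 85, 68 were on chromosome 19, where the 180m G1 list has no call, with 7 on chromosome 12 and 5 on chromosome 5. The stretch with most of them, chr19:36900001-37700000, holds 13, and S called 3 of its 8 windows and G2 none. In chr19:21600001-22800000, with 8, S called 12 of 12 windows and G2 8. Keratin-associated protein genes, which encode hair shaft proteins, had 32 of 94 members only in Async G1, all in chr21:31200001-32400000, where S and G2 each called 11 of 12 windows. The other 62 members were in neither list.

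A few members of other families were only in 180m G1, beside 2.21% of all protein-coding genes. Counts this small do not set these families apart in this class. The members were CDH2, which encodes N-cadherin, of 23 cadherin genes, RPL14 of 82 ribosomal protein genes, and the variant histone genes H2AB2 and H2AB3 of 74 histone genes. Cadherin genes were more common in shared chromatin, where 9 of the 23 lay, beside 2.87% of all protein-coding genes. The 55 keratin, 40 beta-defensin, 53 clustered protocadherin, 19 type I interferon and 13 SERPINB genes were all in chromatin of neither list, as were 91.9% of all protein-coding genes. Likewise, and with the same background, all 14 cell cycle and replication genes examined were in neither list. They were the licensing factor CDT1, the kinases CDK4 and CDK6, the G1 cyclins CCND1, CCND2, CCND3, CCNE1 and CCNE2, the replication clamp PCNA, ORC1 and ORC6 of the origin recognition complex, and MCM3, MCM7 and MCM8 of the helicase family. The nearest to a 180m G1 region was MCM8, at 0.22 Mb. The 13 lamina and envelope genes were in neither list too, which is also near the share of all genes. They encode the lamins (LMNA, LMNB1, LMNB2), the lamin B receptor (LBR), LEM-domain proteins (EMD, TMPO, LEMD2, LEMD3), the chromatin bridging factor BANF1, and the SUN and nesprin proteins that link the NL to the cytoskeleton (SUN1, SUN2, SYNE1, SYNE2).

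The other lists were not used to form the classes. The S list called 22.4% of all windows. It called 98.0% of the windows in both lists, 78.8% of those only in Async G1, 39.7% of those only in 180m G1 and 2.13% of those in neither. The G2 list (20.0% of all windows) called 96.0%, 69.7% and 20.0% of the first 3 classes. The same order held for HCT116 cells that were not sorted. The bulk list (26.9% of all windows) called 84.9% of the windows only in Async G1 and 42.9% of those only in 180m G1. The corresponding shares were 86.3% and 30.5% in the list from 50000 cells (22.8% of all windows), 74.4% and 28.4% from 200000 cells (21.9%), and 72.7% and 20.0% from 1000000 cells (21.2%). These 6 lists are all named consensus lists, as the Async G1 list is, and the part of this in the order was not tested. All 6 lists called 596 (45.5%) of the windows only in Async G1 and 62 (4.42%) of those only in 180m G1, while none of them called 15 (1.15%) and 494 (35.2%).

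**Figure D5:**
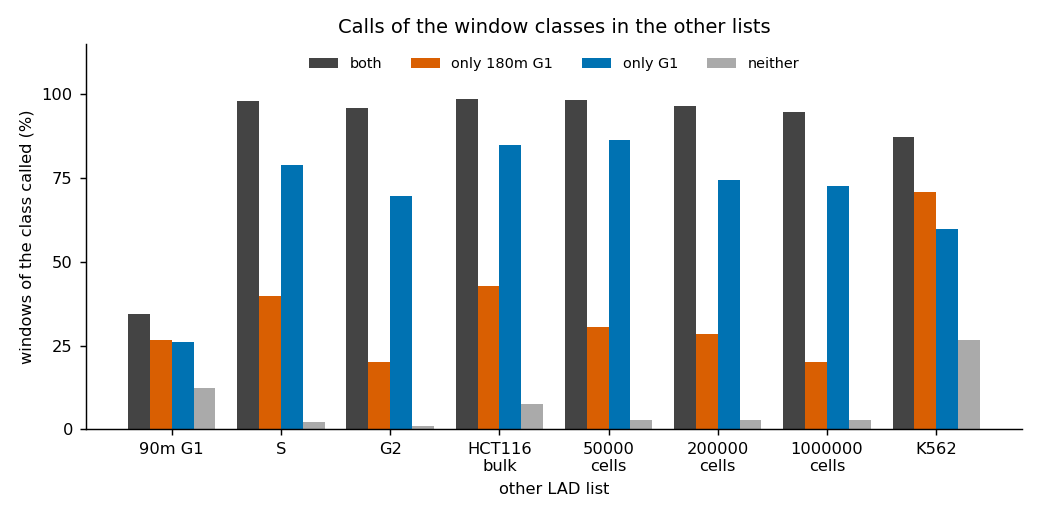
Share of the windows of each class (%) that each other LAD list called, for windows in both lists (dark grey), only in 180m G1 (orange), only in Async G1 (blue) and in neither (light grey). In the 6 HCT116 lists other than 90m G1, the bars for only in Async G1 reach 69.7% to 86.3% and those for only in 180m G1 20.0% to 42.9%. In 90m G1 these bars are level (26.0% and 26.7%), and in K562 the order is turned (59.7% and 70.8%).

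The earlier G1 population did not separate the differing classes. The 90m G1 list called 17.0% of all windows, 34.5% of those in both lists, 26.7% of those only in 180m G1 and 26.0% of those only in Async G1. In K562 the order was turned. The K562 list, which called 39.6% of all windows, called 70.8% of the windows only in 180m G1 and 59.7% of those only in Async G1, beside 87.3% of those in both and 26.5% of those in neither. Calls in S also varied with the place of a stretch. Of the windows only in 180m G1, S called 59.9% of those in filled gaps, 45.0% of those at edges and 29.0% of the free-standing ones, and of the windows only in Async G1 it called 97.0%, 84.1% and 73.3%.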

How the data were processed

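Lamin-B1 cTSA-seq of 180m G1 and Async G1 HCT116 cells was analysed from the lists of regions that the authors deposited. They aligned reads to hg19 with Bowtie2 2.3.2, removed duplicates, counted reads in windows of 100 kb with bedtools 2.26.0, scaled each library, converted the log2 of the pull-down over the input to z-scores and used a Hidden Markov Model with 3 states, of which the strongest gave the regions, and intersected the calls of replicates. The deposited values are region starts and ends in bp. Depth is therefore unknown.

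Here each region was placed on windows of 100 kb of chromosomes 1 to 22, X and Y, and runs of windows of 1 class were joined into stretches. GC was computed from windows with at least 50% sequence. Genes were taken from GENCODE release 44 mapped to hg19, and families by symbol. The genes named are the 3 longest in each of the 6 longest stretches of a class, fixed lists of cell cycle and lamina genes, and family members in only 1 list where few. A gene that this rule would name is not reported here. HOXD and taste receptor genes were named after their values were seen. The members and lists were chosen with earlier results of these data known. No test was run, since each population has 1 list. The procedure was tested on simulated lists. Python 3.11.15, numpy 2.4.6, pandas 2.3.3, scipy 1.17.1 and matplotlib 3.10.9 were used. Alternatives were autosomes only, regions of at least 200 kb, gaps of up to 100 kb joined, no windows that are mostly assembly gap, a tolerance of 1 window for borders, 50% or 100% of a gene, all gene types, and leaving out each chromosome. GC over all windows with any sequence was added after seeing the data.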

Additional observations from a re-analysis of the deposited data

How the results depend on the processing

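A value was taken to have moved when it left the 95% interval of the main value (Wilson for shares, ranks for medians), or by over 1.5 times for counts. These intervals cover counting over windows only. Of 286 settings tried, 264 kept the value. Most settings left out 1 chromosome, which can hardly move a count by over 1.5 times, so the number kept does not measure robustness. For example, protein-coding genes only in Async G1 went from 365 to 278 without chromosome 19 and still counted as kept. On autosomes only, the share of Async G1 windows in 180m G1 was 77.4%. Means in place of medians gave stretches of 1.52 Mb (both), 0.432 Mb (only 180m G1) and 0.429 Mb (only G1). The free-standing share was 46.7% only in 180m G1 with regions of at least 200 kb, and 26.8% and 40.7% over stretches in place of windows. Borders in the same window fell to 19.3% and 16.2% with gaps of up to 100 kb joined, and rose to 46.6% and 39.8% with a tolerance of 1 window. The median distance to the end, only Async G1 minus only 180m G1, was 12.3% of the length and turned to -6.26 in Mb. All gene types gave 1871 and 2482 genes. The cause of these changes was not tested.

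With each chromosome left out in turn, the share of 180m G1 windows in Async G1 ranged from 77.1% to 79.0%, and that of Async G1 windows in 180m G1 from 77.1% (without X) to 80.6% (without 21). The difference in distance ranged from 8.80% (without 21) to 13.3%, and median GC only in Async G1 from 40.4% to 41.2%. No paired analysis was possible because each list is merged over its replicates. Depth limits cannot be given, since the lists hold no counts.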

Other observations

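The windows only in Async G1 could be split by the S and G2 lists, which took no part in forming the class. Both of these lists called 823 of the 1309 windows, and the 90m G1 list called 20.4% of those. Neither S nor G2 called 188 windows, and the 90m G1 list called 76 of these, or 40.4%. Among the windows only in 180m G1 the corresponding shares were 27.9% of 219 windows called in both S and G2, and 24.7% of 785 windows called in neither. Chromosome Y was called at 7.41% in 180m G1 and 9.94% in Async G1, with 27 windows in both lists, 17 only in 180m G1 and 32 only in Async G1.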
